A study of Arabidopsis thaliana with 36 samples.

Results

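The first 6 h of darkness were examined in rosette leaves of Arabidopsis thaliana in 12 of the 36 RNA-seq libraries of a time course of prolonged darkness. Leaves 9 to 12 came from plants grown on soil for 5 weeks with 8 h of light and 16 h of dark a day. The 6 libraries taken after 6 h of darkness comprised 2 each of ivd1-2, hml1-2 and the Columbia wild type (WT, stock CS60000), and the 6 libraries taken at 0 h comprised 2 each of the same genotypes. The libraries were chosen by their labelled time and genotype, not by any measured value, and the 6 were set against the 6 with genotype as a block. ivd1-2 and hml1-2 carry lesions in branched-chain amino acid (BCAA) catabolism and no other allele or agent is labelled. The kind of lesion, the number of plants behind a library and the time of day of sampling are not given in the labels, so the p-values rest on library-to-library spread alone, which may be technical. No 6 h sample in the light was among them, and by the labelled hours 6 h falls at another time of day than 0 h. Darkness and time of day therefore cannot be told apart in what follows.

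A leaf stores part of the day's photosynthate as starch and lives on it at night. When sugar runs short, the SnRK1 kinase and its bZIP partners switch on genes for amino acid, lipid and protein breakdown. Electrons from BCAA and lysine breakdown reach the respiratory chain of mitochondria through the electron-transfer flavoprotein. The circadian clock runs alongside: CCA1 and LHY peak around dawn and repress evening genes, and the PRR genes follow one another through the day.

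Total counts were 21305985 to 32280977 per library after 6 h of darkness and 13638597 to 35657292 at 0 h, and Pearson's r between the 2 libraries of a group, across genes that are not independent, was 0.921 to 0.984. The first principal component, with 66.8% of the variance, separated the 6 h from the 0 h libraries. The second, with 19% of it, followed salicylate defence genes, whose mean level in a list of 20 split the libraries within conditions. After 6 h of darkness this mean was 3.25 and 5.29 log2 CPM (counts scaled to library size by TMM) in ivd1-2, 0.824 and 1.44 in hml1-2 and 0.518 and 0.447 in WT. At 0 h it was 4.13 and 3.81 in ivd1-2, 5.81 and 0.426 in hml1-2 and 5.04 and 0.499 in WT. Plastid genes held at most 0.126% and mitochondrial genes at most 0.0318% of counts. The 6 libraries above 3 log2 CPM in the salicylate list were all those of ivd1-2, and replicate 1 of hml1-2 and of WT at 0 h. A fit without them has no ivd1-2 and only replicate 2 of hml1-2 and of WT at 0 h, so it cannot check the response of all 3 genotypes. Without the 6 libraries above 3 log2 CPM in this list, the counts of called members in the other process lists moved by over 1.5 times only where 2 or fewer were called: 0 starvation genes fell, 2 nitrogen genes rose, 2 chlorophyll breakdown genes fell, 0 jasmonate genes fell and 2 heat shock genes rose.

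**Figure D1:**
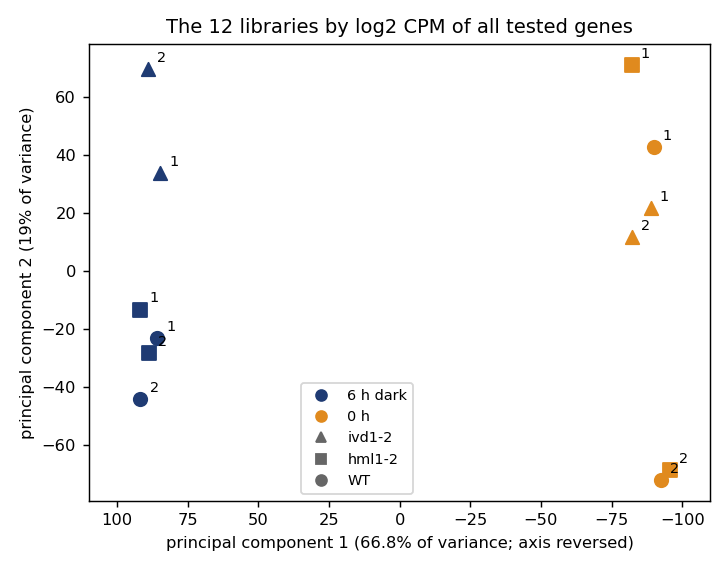
Each point is a library placed by its first (horizontal, axis reversed) and second (vertical) principal component over log2 CPM of all genes tested, with colour for condition, shape for genotype and the replicate number beside it. The 6 h libraries lie together on the left and the 0 h libraries on the right, and both conditions spread along the vertical axis.

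The genes named by the lines were read first. IVD encodes isovaleryl-CoA dehydrogenase of leucine breakdown. After 6 h of darkness it stood at 147 and 190 CPM in ivd1-2, 1061 and 1183 CPM in hml1-2, and 994 and 1188 CPM in WT. At 0 h it stood at 3.12 and 6.04 CPM in ivd1-2, 27.6 and 18.9 CPM in hml1-2, and 21 and 21.8 CPM in WT. The libraries labelled ivd1-2 thus had the lowest levels in both conditions, and IVD still rose within them. HML1, taken as the hydroxymethylglutaryl-CoA lyase gene of the same pathway, stood after 6 h of darkness at 65.4 and 64.9 CPM in hml1-2, 96.1 and 116 CPM in ivd1-2, and 105 and 121 CPM in WT. At 0 h it stood at 45 and 56.2 CPM in hml1-2, 86.7 and 85.5 CPM in ivd1-2, and 76 and 92.2 CPM in WT. The hml1-2 libraries were the lowest in each condition, but by less than in the case of IVD in ivd1-2, so transcript level is a weak check of that line.

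Within 6 h most of the expressed transcriptome had moved. Of 18760 genes tested by edgeR, 6256 rose (33.3%) and 6285 fell (33.5%) at an adjusted p under 0.05, and the median log2 change of all genes was -0.031. At least a 2-fold change was reached by 2619 rising genes (14%) and 3486 falling genes (18.6%), and at least a 4-fold change by 841 and 1243. In bulk leaves, fewer cells of a type and less RNA per cell cannot be told apart. The 6 h libraries lay all above the 0 h libraries in 4758 genes (25.4%) and all below them in 4325 (23.1%).

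Among the 12 largest rises were PRR5, FKF1 and GI of the clock and BCAT2 and THA1 of amino acid breakdown. MIOX2, a myo-inositol oxygenase, had 91.6, 126 and 295 CPM (lowest, median and highest) after 6 h of darkness and 0, 0.225 and 0.699 CPM at 0 h (log2 9.44, SE 0.579, edgeR adjusted p = 1.28e-07). BCAT2, a branched-chain aminotransferase, had 452, 662 and 1100 CPM after 6 h of darkness and 0.622, 1.69 and 3.47 CPM at 0 h (log2 8.43, SE 0.338, edgeR adjusted p = 7.94e-09). In both genes the groups were far apart with no library between them. THA1, threonine aldolase, had 29.1, 51.6 and 68.8 CPM after 6 h of darkness and 0.0777, 0.198 and 0.385 CPM at 0 h (log2 7.86). UMAMIT33, of a family of amino acid exporters, had log2 7.61, GLYI4 of the glyoxalase I family 8.30 and the CAP160 family gene AT4G25580 7.67. CBF1, a regulator of the cold response, had 1881 counts after 6 h of darkness and 3 at 0 h, a ratio of 520 with a 95% counting interval of 178 to 2525. For the coiled-coil protein gene AT5G23700 the 3056 and 3 counts gave a ratio of 845 (289 to 4101). These intervals cover counting error only. AT4G33467, of unknown function, had log2 9.24, and the 3 clock genes are described with their list.

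The 12 largest falls were led by AT3G09450, of the fusaric acid resistance family, with 0, 0.0477 and 0.0965 CPM after 6 h of darkness and 25.3, 32.7 and 35.9 CPM at 0 h (log2 -9.14, SE 0.261, edgeR adjusted p = 2.04e-09). PPT2, a plastid phosphoenolpyruvate translocator, had 0.322, 0.463 and 0.603 CPM after 6 h of darkness and 61, 74.8 and 88.2 CPM at 0 h (log2 -7.32, SE 0.179, edgeR adjusted p = 7.65e-10). HYH, a bZIP factor of light signalling, had 0.254, 0.317 and 0.708 CPM after 6 h of darkness and 37.5, 44.9 and 59.9 CPM at 0 h (log2 -6.88). Summed over 6 libraries, AT3G09450 had 9 counts after 6 h of darkness and 4658 at 0 h, PPT2 had 80 and 10875 in the same conditions, and HYH had 67 and 6280. The others were the Dof factor AT1G26790 (-8.62), scpl10 (-7.51), AT1G68238 (-6.95), the pectin lyase-like AT1G60590 (-6.82), AK3 of aspartate-derived amino acid synthesis (-6.60), the glycosyltransferase AT3G46650 (-6.51), AT2G15020 (-6.49), MYB29 (-6.46) and MES18 (-6.40). MYB29 regulates aliphatic glucosinolates, a pathway that returns below.

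**Figure D2:**
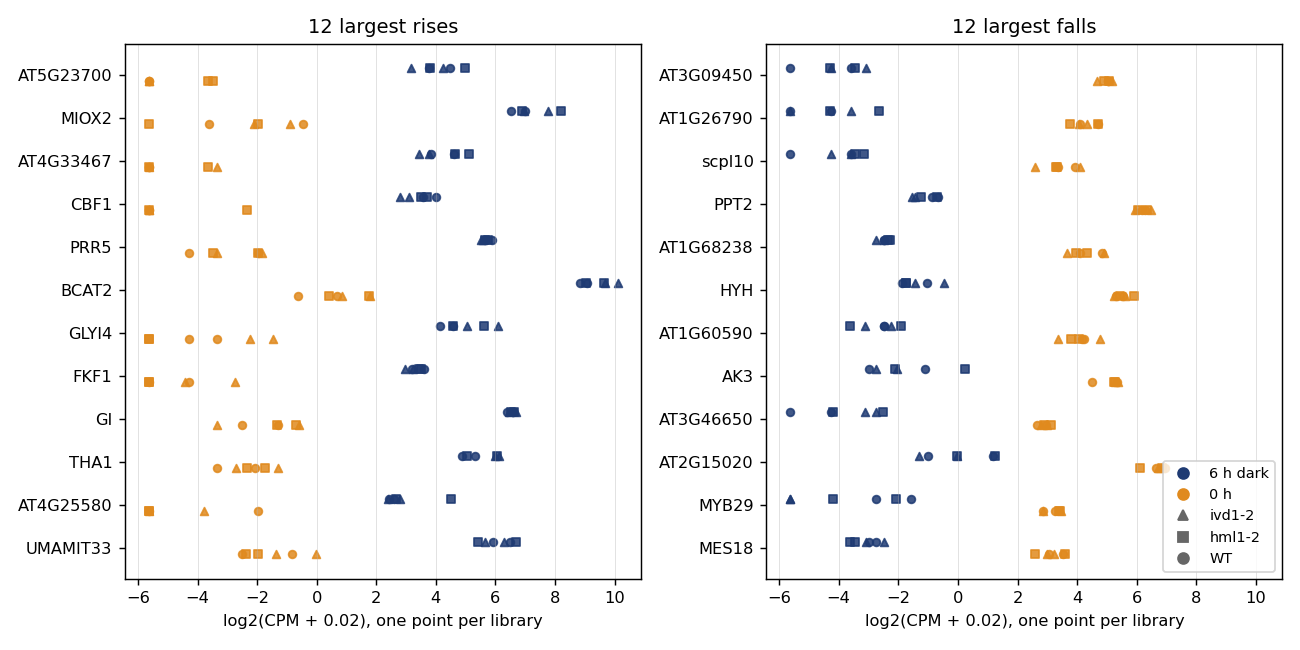
Level of the 12 largest rises (left panel) and 12 largest falls (right panel) on a log2 scale of CPM plus 0.02, with 1 point per library, colour for condition and shape for genotype. In each gene shown the 6 h points and the 0 h points form separate groups, and the genotypes are mixed within them.

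Clock genes changed in both directions: of 23 tested, 13 rose, 9 fell and 1 did not pass, beside 33.3% rising and 33.5% falling among all genes. PRR5 had 46.1, 49.8 and 58.6 CPM after 6 h of darkness and 0.031, 0.156 and 0.257 CPM at 0 h (log2 8.65, SE 0.284, edgeR adjusted p = 3.87e-09). The day-phase genes PRR9 (5.57) and PRR7 (4.32), the later PRR3 (7.05) and TOC1 (3.17), the evening complex genes LUX (3.58), ELF3 (2.67) and ELF4 (4.25), and GI (8.17) and FKF1 (8.26), which act in photoperiodic flowering, rose too. LHY, a dawn gene, had 30.2, 42.6 and 51.5 CPM after 6 h of darkness and 900, 1135 and 1236 CPM at 0 h (log2 -4.78, SE 0.157, edgeR adjusted p = 3.87e-09). Its partner CCA1 had log2 -3.14, the related RVE8 -2.98, and the cycling DOF genes CDF1 (-2.51), CDF2 (-1.96) and CDF3 (-0.61) fell with them. By genotype, the log2 change of LHY was -5.15 in ivd1-2, -4.64 in hml1-2 and -4.54 in WT, and that of PRR5 was 8.38 in ivd1-2, 8.55 in hml1-2 and 9.12 in WT.

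The levels at the later sampling times, whole days after 0 h by label, are given for these genes as values only, since all share the 0 h libraries. PRR5 averaged 0.151 CPM at 0 h, 51 after 6 h, then 19.3 at 24 h, 22.2 at 48 h and 38.8 at 72 h in the dark. It averaged 0.153 CPM when the light cycle had gone on for 72 h. PRR9 averaged 1.09 CPM at 0 h, 50.6 after 6 h, then 1.67 at 24 h, 2.92 at 48 h and 15.2 at 72 h in the dark. LHY averaged 1108 CPM at 0 h, 41 after 6 h, then 244 at 24 h, 24.1 at 48 h and 14.3 at 72 h in the dark, against 1230 in the light cycle at 72 h. PRR9 was thus near its 0 h level a full day later in darkness, whereas PRR5 was not. SEN1, a dark-induced gene described below, averaged 35.6 CPM at 0 h, 6733 after 6 h, then 7586 at 24 h, 6824 at 48 h and 8165 at 72 h in the dark, against 29.9 in the light cycle at 72 h. It stood high at each of the 4 dark samplings.

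**Figure D3:**
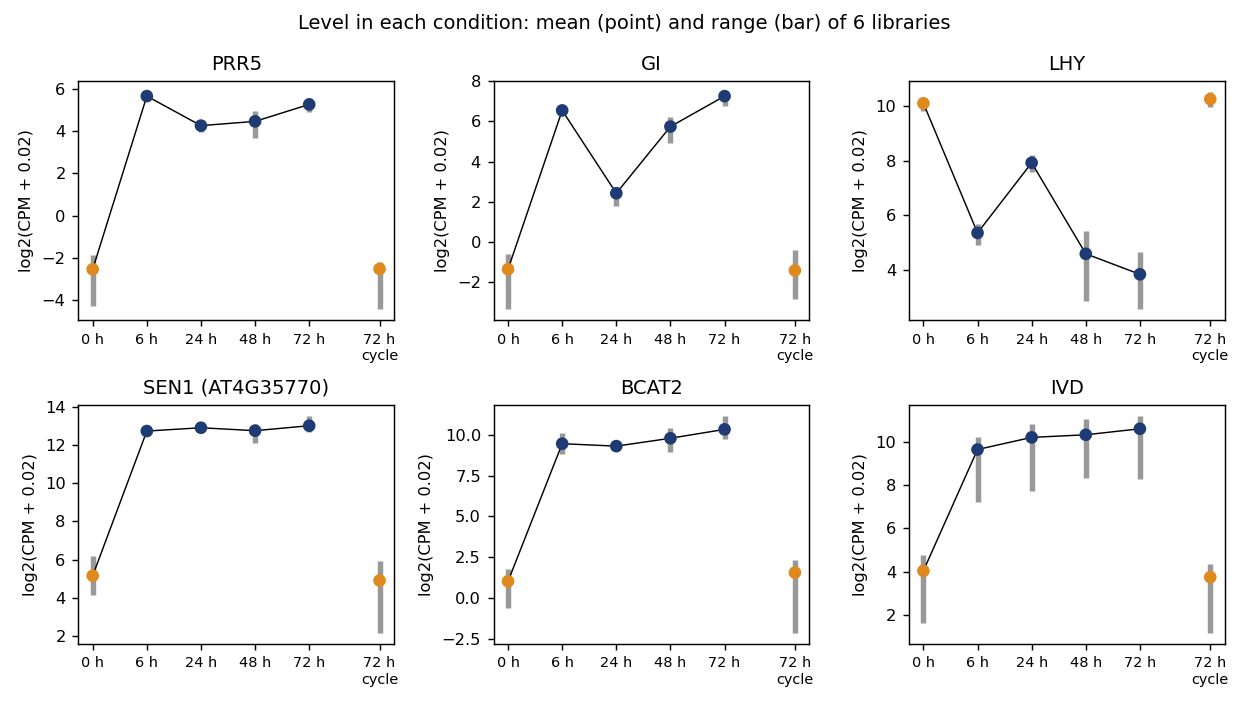
Mean (point) and range over 6 libraries (bar) of 6 genes in each condition, on a log2 scale of CPM plus 0.02, with dark samplings in blue and light-cycle samplings in orange. GI and LHY move back toward their 0 h level at 24 h, while SEN1, BCAT2 and IVD stay far above their 0 h level at the 3 later dark samplings.

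Promoters are shown for a clock gene, a gene of unknown function among the largest rises, and genes of amino acid metabolism, because one or more of the searched motifs can be read in each of them. Windows run from 250 bases before to 50 after the annotated gene start in RefSeq's TAIR10.1, each on the gene's own strand. Searches on both strands used AAAATATCT (the evening element), CACGTG (the G-box), GATAAG (the I-box), TGGGCC (the site II element) and ACTCAT (the proline-responsive element). None of these overlaps another in the 5 windows shown, and matches are in capitals. The window of FKF1 is chr1:25508389-25508688 on the plus strand. The window of PRR5 is chr5:8358497-8358796 on the minus strand. The window of AT4G33467 is chr4:16102171-16102470 on the minus strand. The window of ASN1 is chr3:17441382-17441681 on the minus strand. The window of BCAT2 is chr1:3287837-3288136 on the plus strand. FKF1 holds 2 copies of AAAATATCT and PRR5 1. AT4G33467 holds 1 of it and 2 of CACGTG. ASN1, chosen after its values were seen, holds 2 of CACGTG and 2 of GATAAG, and BCAT2 holds 1 of GATAAG.
FKF1: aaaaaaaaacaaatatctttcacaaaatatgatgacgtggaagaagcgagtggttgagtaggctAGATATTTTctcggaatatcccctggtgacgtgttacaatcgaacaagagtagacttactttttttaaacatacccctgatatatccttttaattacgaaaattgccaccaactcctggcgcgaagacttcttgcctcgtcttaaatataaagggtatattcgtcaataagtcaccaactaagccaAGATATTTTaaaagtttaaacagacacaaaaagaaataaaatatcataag
PRR5: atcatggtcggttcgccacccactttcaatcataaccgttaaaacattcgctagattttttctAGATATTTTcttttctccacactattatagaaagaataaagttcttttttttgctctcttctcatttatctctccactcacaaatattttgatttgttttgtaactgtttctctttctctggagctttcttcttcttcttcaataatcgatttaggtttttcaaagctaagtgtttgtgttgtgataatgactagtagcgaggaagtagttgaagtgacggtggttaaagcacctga
AT4G33467: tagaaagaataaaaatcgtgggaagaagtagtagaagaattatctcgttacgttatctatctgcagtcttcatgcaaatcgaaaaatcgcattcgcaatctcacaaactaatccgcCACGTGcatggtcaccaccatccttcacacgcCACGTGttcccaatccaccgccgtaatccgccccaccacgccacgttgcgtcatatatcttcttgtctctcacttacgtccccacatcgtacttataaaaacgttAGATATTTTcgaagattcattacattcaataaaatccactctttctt
ASN1: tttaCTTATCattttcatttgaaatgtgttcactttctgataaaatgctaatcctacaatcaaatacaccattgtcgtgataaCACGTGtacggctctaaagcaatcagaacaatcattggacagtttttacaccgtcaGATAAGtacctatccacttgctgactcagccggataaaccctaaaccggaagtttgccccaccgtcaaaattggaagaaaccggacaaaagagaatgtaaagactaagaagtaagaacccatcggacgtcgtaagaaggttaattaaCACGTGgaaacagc
BCAT2: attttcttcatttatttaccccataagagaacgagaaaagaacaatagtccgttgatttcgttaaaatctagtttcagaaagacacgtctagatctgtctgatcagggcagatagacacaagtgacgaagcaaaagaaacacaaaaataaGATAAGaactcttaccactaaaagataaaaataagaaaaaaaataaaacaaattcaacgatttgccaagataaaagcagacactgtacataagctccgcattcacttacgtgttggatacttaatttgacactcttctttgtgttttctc

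The starvation and SnRK1 list rose almost as a whole. Of 25 members tested out of 29, 21 rose, 1 fell and 3 did not pass, beside 33.3% rising and 33.5% falling among all genes. The median log2 change was 2.26 against -0.031 over all genes. SEN1 (AT4G35770), a dark-inducible marker, had 6065, 6627 and 7499 CPM after 6 h of darkness and 17.8, 29.8 and 73.1 CPM at 0 h (log2 7.60, SE 0.419, edgeR adjusted p = 6.34e-08). ASN1, the asparagine synthetase whose promoter is printed above, had 4489, 5523 and 6235 CPM after 6 h of darkness and 8.07, 48.9 and 120 CPM at 0 h (log2 6.69, SE 0.684, edgeR adjusted p = 6.14e-06). DYL1, a dormancy-associated gene, had 433, 478 and 560 CPM after 6 h of darkness and 7.23, 7.78 and 11.2 CPM at 0 h (log2 5.80, SE 0.15, edgeR adjusted p = 1e-09). The groups were apart in all 3, and the spread among 0 h libraries was widest for ASN1. DRM2 (AT2G33830), also dormancy-associated, had log2 7.44 and DIN10, a raffinose synthase family gene, 3.86. The kinase itself moved less. KIN10, its catalytic subunit, had 71.3, 78.9 and 90.8 CPM after 6 h of darkness and 35.2, 39.1 and 41.3 CPM at 0 h (log2 1.07), and the second catalytic subunit KIN11 had log2 0.86. The beta subunit AKINBETA1 (2.61) and the partner factor bZIP1 (2.81) rose more. Among trehalose-6-phosphate synthase homologues TPS10 (2.55) and TPS11 (2.48) rose and TPS5 (-0.53) was the member that fell. BGLU30, a beta-glucosidase known as dark-inducible, varied widely among libraries: 0.682, 3.97 and 87.8 CPM after 6 h of darkness and 0, 0.0989 and 5.85 CPM at 0 h (log2 4.74), and its groups overlapped.

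Starch synthesis genes mostly fell, and breakdown genes went both ways, with more rising than falling. Of 17 breakdown genes tested, 11 rose, 5 fell and 1 did not pass, beside 33.3% rising and 33.5% falling among all genes. Of 14 synthesis genes, 2 rose, 11 fell and 1 did not pass, with medians of 0.884 and -1.27. ISA3, a debranching enzyme, had 39.3, 52.5 and 61.3 CPM after 6 h of darkness and 2.12, 3.07 and 3.71 CPM at 0 h (log2 4.09). The amylase AMY3 (3.46), the disproportionating enzyme DPE1 (3.19), the regulatory BAM4 (2.90), the phosphorylase PHS1 (2.01), the glucan phosphorylating GWD1 (1.73) and the phosphatase SEX4 (1.54) rose with it. BAM3 (AT4G17090), a chloroplast beta-amylase, went the other way, with 84.2, 97.6 and 131 CPM after 6 h of darkness and 879, 1115 and 1232 CPM at 0 h (log2 -3.45), as did BAM6 (-5.35) and BAM9 (-2.99). GBSS1, which makes amylose, had 27, 38.1 and 48.5 CPM after 6 h of darkness and 310, 481 and 542 CPM at 0 h (log2 -3.69). The ADP-glucose pyrophosphorylase gene APS1 (-2.37) and the starch synthases SS2 (-2.04) and SS3 (-1.66) fell too, while SBE2.1 (0.97) and SS4 (0.74) rose. Of 22 genes of sugar transport and sucrose, 12 rose and 5 fell, beside the same shares of all genes. The hexose importer STP1 had 2806, 3426 and 4160 CPM after 6 h of darkness and 249, 388 and 618 CPM at 0 h (log2 3.04), with no overlap, whereas the sucrose phosphate synthase ATSPS4F had log2 -3.12.

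Most BCAA breakdown genes rose, from the first step of the pathway to the electron-transfer genes. Of 21 members, 17 rose and 4 fell, beside 33.3% rising and 33.5% falling among all genes, and the median was 2.85. After BCAT2, the branched-chain dehydrogenase complex came next: its E1 subunit DIN4 ranged over 366 to 506 CPM after 6 h of darkness and 12.8 to 22.3 CPM at 0 h (log2 4.61), with BCE2 at 4.09 and BCDH BETA1 at 4.01. IVD itself had 147, 1027 and 1188 CPM after 6 h of darkness and 3.12, 19.9 and 27.6 CPM at 0 h (log2 5.51, SE 0.199, edgeR adjusted p = 4.86e-09), and by genotype its log2 change was 5.23 in ivd1-2, 5.59 in hml1-2 and 5.67 in WT. MCCA, a subunit of methylcrotonyl-CoA carboxylase, had 1498, 1870 and 2472 CPM after 6 h of darkness and 29.6, 47.2 and 74.1 CPM at 0 h (log2 5.28). The lowest 6 h library stood above the highest 0 h library in each of these. Its partner subunit MCCB had log2 3.23 and HML1, of a later step, 0.37 (SE 0.0871, edgeR adjusted p = 0.00318), with overlapping groups. Without the 6 libraries high in salicylate genes, and so with no ivd1-2 library, HML1 no longer passed (log2 0.25, edgeR adjusted p = 0.0679). ALDH6B2 of valine breakdown had log2 4.81, and the electron-transfer genes ETFQO (3.62), ETFB (1.52) and ETFA (0.78) rose, the oxidoreductase most. The 4 that fell were mtLPD1 (-1.43), mtLPD2 (-0.38), AT4G31810 (-1.17) and AT5G09300 (-1.39), where mtLPD1 and mtLPD2 encode a subunit shared with other dehydrogenases and with glycine decarboxylase.

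Breakdown of other amino acids followed the same direction in 18 of 24 genes, with 3 falling. Among all genes 33.3% rose and 33.5% fell. LKR-SDH, which starts lysine breakdown, had 475, 609 and 702 CPM after 6 h of darkness and 6.51, 7.68 and 15.8 CPM at 0 h (log2 6.11). ERD5, proline dehydrogenase, had 798, 1252 and 2036 CPM after 6 h of darkness and 18.6, 42.9 and 75.9 CPM at 0 h (log2 5.00). GDH2, glutamate dehydrogenase, had 344, 503 and 653 CPM after 6 h of darkness and 7.97, 13 and 15 CPM at 0 h (log2 5.33). No library of one condition reached into the other in these genes. HGO of tyrosine breakdown (4.24), the methionine lyase MGL (4.59) and the sulfur dioxygenase ETHE1 (3.27) rose, while GDH3 (-1.93) and ARGAH2 (-2.06) fell. Of 18 fatty acid breakdown genes 13 rose and 1 fell, with CSY2 (3.09) and CSY3 (2.50), the peroxisomal citrate synthases, the oxidase ACX4 (2.49), the thiolase KAT2 (2.44) and the lipase SDP1 (1.73). PMDH2 (-0.61), a peroxisomal malate dehydrogenase, was the one that fell. Autophagy genes moved in a single direction, 25 of 33 rising and 0 falling, by smaller steps. ATG8E, which tags autophagosomes, had 231, 246 and 275 CPM after 6 h of darkness and 59.9, 77.9 and 82.4 CPM at 0 h (log2 1.77), with ATG8B at 2.04 and ATG8F at 1.47. The 8 that did not pass included ATG5, ATG6, ATG7 and ATG9.

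**Figure D4:**
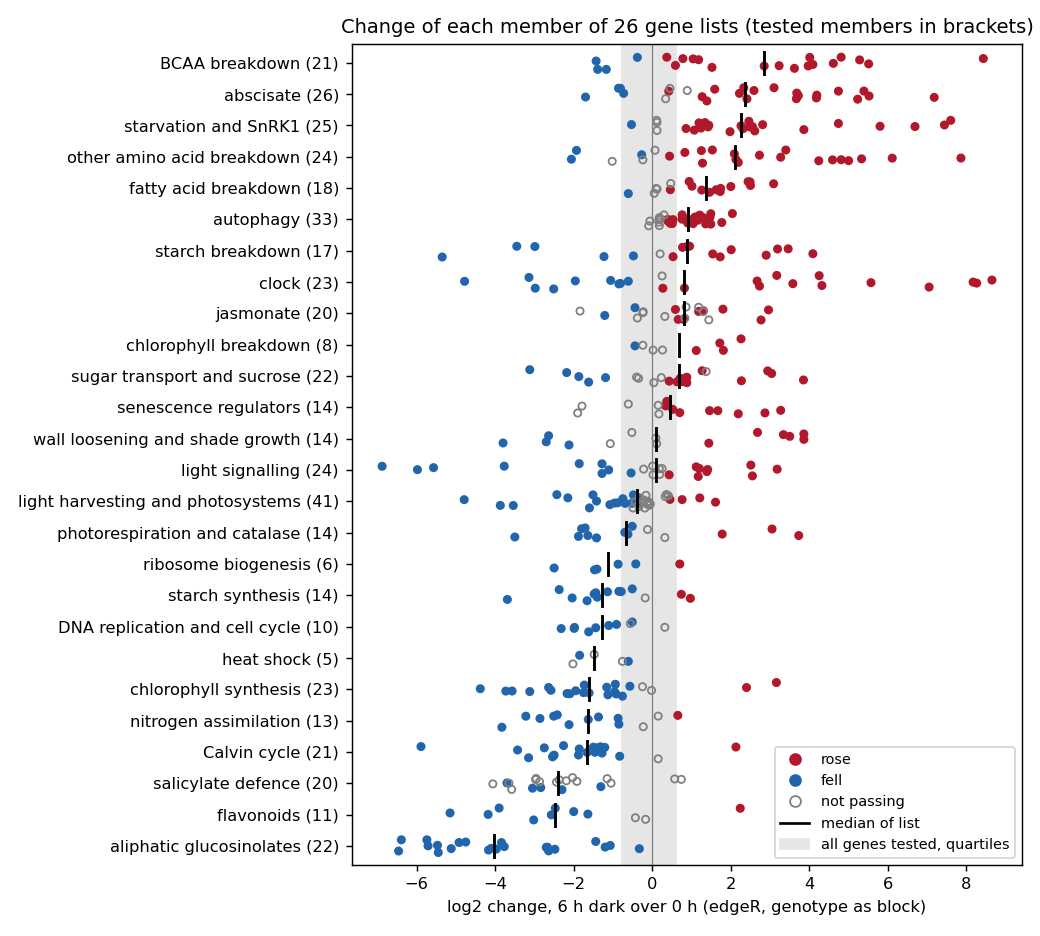
Log2 change of each tested member of 26 gene lists, 6 h dark over 0 h, with red for genes that rose, blue for those that fell, open circles for those not passing, a black tick at each list's median and a grey band at the quartiles of all genes tested (-0.783 and 0.606). The medians of the catabolic lists lie right of the band and that of aliphatic glucosinolates left of it, with some members elsewhere.

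Most genes of carbon fixation fell, and fewer than 1 in 2 of those of light harvesting did. Among all genes 33.5% fell and 33.3% rose. Of 21 Calvin cycle genes 19 fell and 1 rose, with a median of -1.66. RBCS1B, a Rubisco small subunit, had 12.5, 13.5 and 16.9 CPM after 6 h of darkness and 647, 866 and 990 CPM at 0 h (log2 -5.89), though reads of near-identical RBCS copies make single copies uncertain. RCA, Rubisco activase, had 2134, 3169 and 3961 CPM after 6 h of darkness and 12774, 16776 and 21190 CPM at 0 h (log2 -2.50). Of 41 light harvesting and photosystem genes 19 fell, 4 rose and 18 did not pass, and the falling count was 12 in WT and hml1-2 alone and 31 with the salicylate level as a covariate. LHCA6 had 4.37, 6.62 and 8.35 CPM after 6 h of darkness and 141, 190 and 216 CPM at 0 h (log2 -4.79), and the photoprotective PSBS had 129, 154 and 204 CPM after 6 h of darkness and 1322, 1860 and 2234 CPM at 0 h (log2 -3.54). LHCB1.4 had log2 1.61, so this family moved in both directions, and LHCB1 and LHCB2 copies cannot be fully separated.

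Over all genes 33.5% fell and 33.3% rose. In photorespiration 9 of 14 genes fell, among them the glycine decarboxylase gene GLDP1 (-3.50). The 3 that rose were AGT1 (1.78), a serine-glyoxylate aminotransferase, and a pair of catalases. CAT3 (AT1G20620) had 6085, 8998 and 11472 CPM after 6 h of darkness and 413, 710 and 903 CPM at 0 h (log2 3.73), and CAT1 had log2 3.05. In nitrogen assimilation 10 of 13 fell and 1 rose. NIA2, the main nitrate reductase, had 151, 329 and 461 CPM after 6 h of darkness and 3828, 4601 and 4983 CPM at 0 h (log2 -3.83), with NIR1 (-2.51), GLN2 (-2.12) and ASN2 (-3.22), against GLN1.3 (0.65). ASN1 and ASN2, both asparagine synthetases, thus stood in opposite directions. Chlorophyll synthesis fell in 19 of 23 genes. CHLH, of magnesium chelatase, had 581, 757 and 961 CPM after 6 h of darkness and 5180, 6709 and 7538 CPM at 0 h (log2 -3.12). The protochlorophyllide oxidoreductases split: PORC had log2 -3.73, while PORA (3.16) and PORB (2.40) were the 2 that rose. PORB averaged 97 CPM at 0 h, 514 after 6 h, then 115 at 24 h, 42.9 at 48 h and 36.8 at 72 h in the dark.

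Some chlorophyll breakdown and senescence genes rose, beside 33.3% rising and 33.5% falling among all genes. Of 8 breakdown genes 4 rose, namely NYC1 (1.72), PPH (1.81), PAO (1.12) and SGR2 (2.26), and HCAR (-0.44, edgeR adjusted p = 0.0489) passed narrowly. The HCAR call was lost with 6 group means, in WT and hml1-2 alone, and in fits without any single one of both ivd1-2 libraries at either time, replicate 2 of hml1-2 or WT at 0 h, or replicate 1 of hml1-2 or WT at 6 h. Of 14 senescence regulators 9 rose and 0 fell, or 1 fell by DESeq2, with all 36 libraries, in WT and hml1-2 alone and without ivd1-2 replicate 2 at 6 h. Among those that rose, NAC092, known as ORE1, had 24.9, 42.6 and 63.3 CPM after 6 h of darkness and 2.88, 9.12 and 15.5 CPM at 0 h (log2 2.19), and ORS1 (3.27), WRKY22 (2.87) and EIN3 (1.46) rose. The groups did not overlap for NAC092 but did for NAP (0.70). The mean of the senescence list after 6 h of darkness was 5.32 and 5.71 log2 CPM in ivd1-2, 4.93 and 4.31 in hml1-2 and 4.88 and 4.18 in WT. At 0 h it was 4.18 and 4.29 in ivd1-2, 4.93 and 2.97 in hml1-2 and 4.65 and 3.05 in WT. The 4 higher 0 h libraries were those above 3 log2 CPM in the salicylate list, and hml1-2 replicate 1 had the same senescence mean in both conditions. The median log2 change of the list was 1.31 in ivd1-2, 0.462 in hml1-2 and 0.438 in WT. Abscisate genes rose in 19 of 26 cases, with 4 falling and a median of 2.37. RD29A, a stress-responsive gene, had 253, 555 and 741 CPM after 6 h of darkness and 2.22, 3.37 and 4.69 CPM at 0 h (log2 7.18). By genotype the change of RD29A was 6.05 in ivd1-2, 8.01 in hml1-2 and 7.52 in WT. Its difference in ivd1-2 from the mean of WT and hml1-2 was -1.71 by edgeR (adjusted p = 0.72) and -1.77 by DESeq2 (adjusted p = 0.000574), and DESeq2 also called that of the dehydrin gene ERD10 (-0.83, adjusted p = 0.0262). COR47, a dehydrin, had 867, 1343 and 1636 CPM after 6 h of darkness and 27.2, 34 and 38.9 CPM at 0 h (log2 5.23). ABF1 (4.19), a factor binding abscisate-responsive promoters, and NCED3 (2.41), of abscisate synthesis, rose as well, while CYP707A3 (-1.70) and CYP707A1 (-0.86), which degrade abscisate, fell. RD29A averaged 3.4 CPM at 0 h, 517 after 6 h, then 55.6 at 24 h, 255 at 48 h and 439 at 72 h in the dark.

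Aliphatic glucosinolate synthesis was the only one of the 26 lists in which every tested gene fell, 22 of 22, with a median of -4.04. MYB28, the main regulator, had 1.97, 2.91 and 3.24 CPM after 6 h of darkness and 36, 42.7 and 48.3 CPM at 0 h (log2 -3.97). The side-chain genes BCAT4 (-4.92) and IPMI2 (-5.47) and the late gene FMO-GS-OX3 (-6.39) fell, and CYP79F1 had log2 -5.74 but shares reads with a near-identical copy. One further member, AOP2, was left out for low counts. MYB28 averaged 41.9 CPM at 0 h, 2.69 after 6 h, then 14.1 at 24 h, 5.51 at 48 h and 0.874 at 72 h in the dark. In the flavonoid list 8 of 11 fell and 1 rose, beside 33.5% falling and 33.3% rising among all genes. CHS, chalcone synthase, had 2.17, 3.27 and 5.98 CPM after 6 h of darkness and 36.7, 63 and 92.1 CPM at 0 h (log2 -4.18), and the repressor MYBL2 was the one that rose (2.24).

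Of 24 light signalling genes 9 rose and 9 fell, shares near the 33.3% and 33.5% of all genes, so the counts say nothing particular of the list. PIF4, which promotes dark growth, had 303, 381 and 460 CPM after 6 h of darkness and 56.3, 64.1 and 69.9 CPM at 0 h (log2 2.55). PHYA (2.51), the far-red photoreceptor gene, and HFR1 (3.18) rose, while HYH, HY5 (-1.28), SPA1 (-1.86) and BBX25 (-3.77) fell. ELIP2 had 0 counts over the 6 h libraries and 28 over the 0 h libraries. Of 14 wall and shade growth genes 6 rose and 4 fell, again beside 33.3% and 33.5% of all genes. Its members included XTH22 (3.86), XTH24 (3.34), IAA29 (3.50) and ATHB2 (2.68), which rose, and the expansins EXPA8 (-2.12) and EXPA5 (-3.80), which fell. DNA replication fell in 8 of 10 genes, such as MCM6 (-2.32) and PCNA1 (-1.62), with 1 rising without WT replicate 2 at 0 h or hml1-2 replicate 1 at 6 h, and ribosome biogenesis in 5 of 6, with FIB2 at -2.50 and NUC1 the exception (0.70).

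Defence genes did not give a shared response. Of 20 salicylate genes 5 fell and 0 rose, beside 33.5% falling and 33.3% rising among all genes. The groups overlapped in all 20. Over all genes the 6 h libraries lay all above the 0 h libraries in 25.4% and all below them in 23.1%. ICS1 (-2.30, edgeR adjusted p = 0.0263) and EDS1 (-1.31, edgeR adjusted p = 0.0422), of salicylate synthesis and signalling, passed narrowly. The falling count was 13 by DESeq2, 12 with all 36 libraries, 11 with 6 group means, 15 in WT and hml1-2 alone and 2 with a replicate block. It was 15 without ivd1-2 replicate 2 at 6 h, 2 without ivd1-2 replicate 1 at 6 h, 1 without either hml1-2 or either WT library at 6 h, and 0 without WT replicate 1 at 0 h. Without hml1-2 replicate 1 at 0 h 1 fell and 2 rose. The list medians were 0.613 in ivd1-2, -4.04 in hml1-2 and -3.96 in WT. The libraries above 3 log2 CPM in this list were all 4 of ivd1-2 and replicate 1 of hml1-2 and of WT at 0 h. They were picked by this list, so no count of it is given without them. Of 20 jasmonate genes 8 rose, among them JAZ10 (2.96) and MYC2 (1.80), and 2 fell, LOX2 (-1.21) and JAZ6 (-0.44), beside 33.3% rising and 33.5% falling of all genes. The falling count was 0 without replicate 2 of hml1-2 or WT at 6 h, and 1 without either hml1-2 or either WT library at 0 h, ivd1-2 replicate 1 at 0 h or WT replicate 1 at 6 h. Of 5 heat shock genes 2 fell, HSP18.2 (-1.85) and HSP101 (-0.61), beside 33.5% of all genes. Without hml1-2 replicate 2 at 0 h 4 fell.

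Markers of cell types gave the leaf label a check. Mesophyll markers summed to 13400 to 23900 CPM after 6 h of darkness and 20900 to 37900 CPM at 0 h, and seed markers to at most 0.0352 CPM. Among mesophyll markers CA1 (log2 -2.14) and RBCS1A (-1.5) fell, and LHCB1.3 (-0.0478) did not pass. Guard cell markers summed to 44.4 to 52.2 CPM after 6 h of darkness and 43.3 to 53.1 CPM at 0 h, and phloem markers to 352 to 516 CPM after 6 h of darkness and 368 to 502 CPM at 0 h. The guard cell sum hides opposite moves: SLAC1 rose (log2 1.83, edgeR adjusted p = 3.65e-06), MYB60 fell (-0.576, edgeR adjusted p = 0.0216) and 3 did not pass. No phloem marker passed. Epidermis markers summed to 390 to 882 CPM after 6 h of darkness and 695 to 1030 CPM at 0 h, with 2 of 5 falling. The falling count was 1 without hml1-2 replicate 2 or ivd1-2 replicate 1 at 0 h or WT replicate 1 at 6 h. It was also 1 with a mean of at least 5 CPM required, but 4 with scaling by total counts and 4 with the salicylate level as a covariate. Root markers summed to 3.4 to 8.42 CPM after 6 h of darkness and 0.0931 to 0.514 CPM at 0 h. This came from CASP2 (log2 4.52), with CASP1 and PYK10 near 0. Flower markers summed to 0.84 to 2.69 CPM after 6 h of darkness and 0.155 to 0.776 CPM at 0 h. Of 6 flower markers PI rose (log2 5.47, edgeR adjusted p = 5.62e-06), AG fell (-1.61, edgeR adjusted p = 0.00395), and LFY was at 0.

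Each genotype was also set against its own 0 h libraries. Tested alone, 4213 genes rose (22.5%) and 3779 fell (20.1%) in ivd1-2, 4094 rose (21.8%) and 3947 fell (21%) in hml1-2, and 4083 rose (21.8%) and 3868 fell (20.6%) in WT. In all 3 genotypes 3262 genes rose (17.4%) and 2841 fell (15.1%). Across genes, which are not independent replicates, the changes had Pearson's r of 0.946 between hml1-2 and WT, 0.815 between ivd1-2 and WT and 0.811 between ivd1-2 and hml1-2, each genotype having its own 0 h libraries. edgeR called 0 genes (0%) whose change differed between ivd1-2 and the mean of hml1-2 and WT, and 0 between hml1-2 and WT. At an unadjusted p under 0.05 there were 1050 and 67, where an even spread of p-values would give 938, and DESeq2 called 24 and 0. As 67 is far below 938, the test of hml1-2 against WT was conservative, and its 0 calls do not show equal changes. The smallest edgeR adjusted p was 0.0973, for the ion channel gene CNGC12, with log2 -2.47 in ivd1-2, -4.3 in hml1-2 and -4.07 in WT. DESeq2 called the difference of CNGC12 in ivd1-2 (1.66, adjusted p = 1.51e-09). MLO3, chosen after its values were seen, had log2 -0.01 in ivd1-2, 5.1 in hml1-2 and 4.97 in WT. The difference of ivd1-2 from the mean of hml1-2 and WT was -5.04 (edgeR adjusted p = 0.72), passed in a fit of all 36 libraries (edgeR adjusted p = 0.00441) and passed by DESeq2 (adjusted p = 4.46e-08). MLO3 is the protein-coding gene next to IVD on chromosome 3 in the TAIR10.1 annotation, and the genes lie on opposite strands with their 3′ ends facing each other. An antisense gene overlaps MLO3 there, and since the strand setting is not known its count is uncertain. IVD rose by log2 5.23 in ivd1-2 as well, and whether reads running past the end of IVD, or the lesion, bear on the count of MLO3 was not tested.

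**Figure D5:**
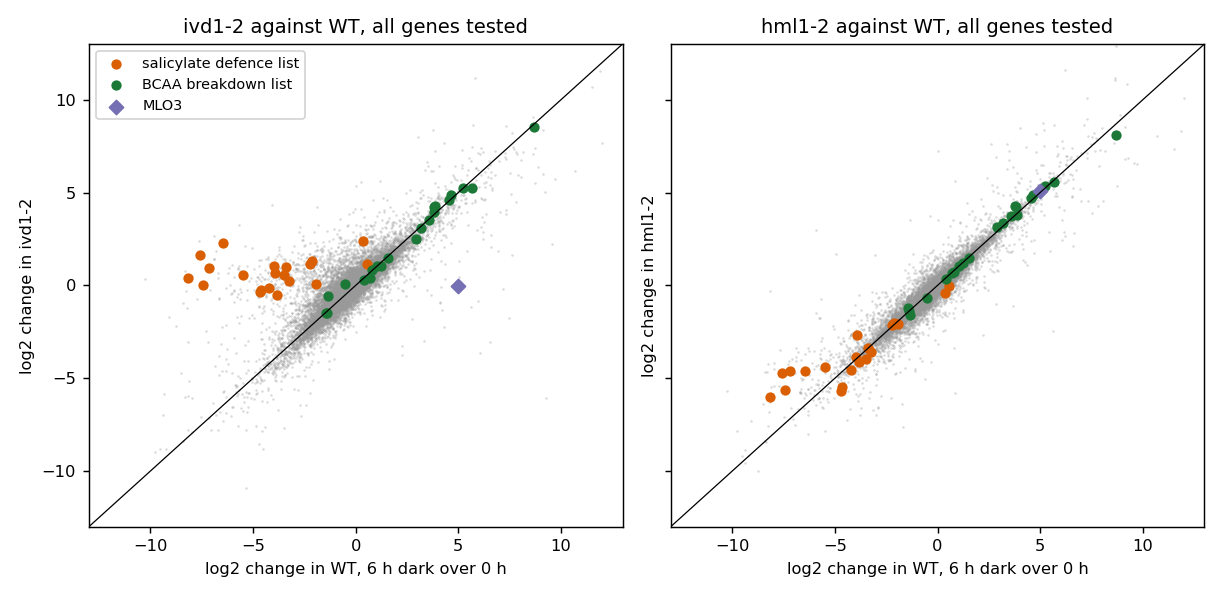
Log2 change of all genes tested in ivd1-2 (left) and hml1-2 (right), on the vertical axis, against WT on the horizontal axis. The salicylate list is in orange, the BCAA breakdown list in green and MLO3 is a diamond. Points follow the diagonal in both panels, and the salicylate genes leave it in ivd1-2.

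Over the promoters of 18411 tested genes with a window, AAAATATCT on either strand was held by 3.08%. It was held by 12.8% of genes that rose at least 4-fold and 1.62% of those that fell at least 4-fold, and by 6 of the 23 clock promoters. GATAAG was held by 24.8% of genes that rose at least 4-fold, 13.6% of those that fell at least 4-fold and 15.1% of all, and CACGTG by 15.2%, 9.67% and 8.95% of the same sets. TGGGCC was held by 11.3%, 14.1% and 19.5%, and ACTCAT by 16.4%, 15.5% and 14%. Median GC content of the windows was 31%, 31.7% and 32% in these sets. A match is a run of letters and not a shown binding site.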

How the data were processed

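The authors deposited raw counts per gene for each library, with no normalization, and the counts held whole numbers. Per the submitters' processing notes, reads were handled with TopHat 1.4.1, HTSeq, Trimmomatic 0.30, Cuffdiff 2.1.1 and SAMtools 0.1.19 on the TAIR10 build. Which strand setting the counting had was not given in the sources used here. Overlapping genes are therefore uncertain. The 5 entries per file that name no gene were left out: reads with no feature were 0.582 to 0.793% and ambiguous reads 1.7 to 2.01% in the 12 libraries. Of 28774 loci, 28009 matched RefSeq's TAIR10.1 annotation.

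Tests were run with edgeR 4.0.16 (R 4.3.3, limma 3.58.1), with DESeq2 1.42.0 as an alternative. filterByExpr (minimum count 10, minimum total 15) kept 18760 genes, and those removed held 0.0169% of counts. TMM factors came from all 36 libraries. edgeR's quasi-likelihood test with genotype as a block (8 residual degrees of freedom) gave the main values, and a fit of 6 group means (6 residual degrees of freedom) gave the changes within genotypes and their differences. Adjusted p-values are Benjamini-Hochberg over all 18760 genes, with a threshold of 0.05. Log2 CPM values used a prior count of 2, whereas log2 changes came from the edgeR fit at its default setting. A ratio with 3 or fewer counts on one side has an exact 95% interval for counting error. The fits were also run on simulated data, but the outcome is not given here and nothing rests on it. Named genes were the 12 largest rises and falls (mean of at least 5 CPM, no overlap), up to 4 genes of each list with the smallest p, IVD and HML1. Further list members in the text were picked with their values in view. The members and lists were chosen with earlier results of these data known.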

Additional observations from a re-analysis of the deposited data

Results flagged for a closer look

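Among 264 pairs of a named gene and a condition, 19 in 17 genes (7.2%) had a library far from the other 5 by Dixon's 95% criterion. That criterion flags about 1 in 20 groups of normally distributed values, and these are CPM on a linear scale, some from as few as 3 counts in all. At 6 h of darkness the outlying library was the highest for AT4G25580 (hml1-2 replicate 2, 22.8 CPM), AK3 (hml1-2 replicate 1, 1.17 CPM), AT4G17090 (WT replicate 2, 131 CPM), ATG8F (hml1-2 replicate 1, 523 CPM), PCB2 (hml1-2 replicate 2, 7.15 CPM), CHS (WT replicate 2, 5.98 CPM), AT5G52810 (ivd1-2 replicate 2, 21.7 CPM), PR5 (ivd1-2 replicate 2, 93.1 CPM), JAZ10 (ivd1-2 replicate 1, 6.43 CPM) and CASP2 (hml1-2 replicate 2, 8.35 CPM). At 0 h it was the highest for CBF1 (hml1-2 replicate 2, 0.179 CPM), FKF1 (ivd1-2 replicate 2, 0.128 CPM), AT4G25580 (WT replicate 2, 0.233 CPM), LKR-SDH (ivd1-2 replicate 1, 15.8 CPM), WRKY22 (WT replicate 2, 11.8 CPM) and ERD10 (ivd1-2 replicate 1, 30.4 CPM). At 0 h it was the lowest for AK3 (WT replicate 2, 22.5 CPM), GBSS1 (hml1-2 replicate 1, 310 CPM) and AG (WT replicate 2, 0.0777 CPM). PR5 and AT5G52810 belong to the salicylate list, and the library concerned was the highest of the 6 h libraries in that list.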

How the results depend on the processing

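With a mean of at least 5 CPM required, 12987 genes were tested and the falling count was 4059, with 1910 of at least 2-fold; fewer genes were tested. That filter left 3 falling DNA replication, 5 flavonoid, 2 abscisate and 2 BCAA genes. The other counts of rising and falling genes stayed within 1.5 times. Leaving out a library gave 5981 to 6356 rising and 5957 to 6345 falling genes, scaling by total counts 5295 and 6927 (median of all genes -0.15), DESeq2 6333 and 6514, and all 36 libraries 6068 and 6054. Without the 6 libraries high in salicylate genes there were 5846 and 5649, and with the salicylate level as a covariate 6866 and 6524, both chosen after seeing the data. Deviations of same-numbered libraries had r over 0.1 in 13 of 15 pairs of groups (range -0.344 to 0.866), the highest between hml1-2 and WT at 0 h. Whether this bears on the few small p-values of the difference between hml1-2 and WT was not tested. The third principal component, with 4.67% of the variance, also split the libraries by number. It was 2.93 to 35.6 in replicate 1 libraries and -43.5 to -2.96 in replicate 2 libraries. What the number marks is not given in the labels. Since r was not over 0.1 in all pairs, the main fit did not pair the libraries, and any difference between numbers stays in its spread. With a replicate block 6566 rose and 6448 fell. Genes whose change differed in ivd1-2 numbered 24 by DESeq2, 1 with all 36 libraries, and 0 to 1 when a library was left out; among genotypes they numbered 12 by DESeq2 and 1 with all 36. The cause was not tested. Of 3151 values of 132 named genes, 3118 kept their direction and side of the threshold, 33 lost the threshold and 0 reversed, in EDS1, PR5, ICS1, MYB60, PDF1, AT5G52810 and HML1. Nearly all of the 132 were picked from these libraries for large changes or small p-values. Staying called was therefore likely from the start, and the count does not speak for other genes given in the text. HCAR, for 1, is not among the 132. With 2 libraries per group, changes that differ between genotypes are the least certain.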

Other observations

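Gene families defined by their annotated product, each with at least 15 tested members, are given as counts chosen after their values were seen. Of 193 RING/U-box genes, which include ubiquitin ligases, 109 rose and 36 fell, and of 24 ubiquitin-like genes 17 rose and 0 fell. Of 19 adenine nucleotide alpha hydrolases-like genes 14 rose and 1 fell, with a median log2 change of 0.856. Of 174 pentatricopeptide repeat genes, many of which act on organelle RNA, 109 fell and 14 rose, and of 34 GDSL-like lipase genes 23 fell. Over all genes tested, 33.3% rose and 33.5% fell.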
